A study of Rattus norvegicus with 24 samples.

Results

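Whole rat brains were profiled after 5 exposures to halothane and set against brains of control rats, on 3 arrays after halothane and 12 control arrays out of 24 in the series. The 15 arrays were chosen by their titles. The halothane rats had breathed 0.8% halothane for 90 min at a time, with 2 exposures a day and 3 h of recovery between them, over 2.5 days (n = 3). Each control rat was perfused with ice-cold saline after 3 min of halothane (n = 12), so both groups had met the agent. The other 9 arrays, 3 in each group, followed 10 halothane exposures over 5 days, 5 exposures to 1.0% isoflurane over 2.5 days and 10 isoflurane exposures over 5 days. The material was total RNA of the whole organ. Sex, age, strain and the time from the last exposure to collection are not given in the sources used here. Nothing in the labels says that replicates were separate rats, and a p-value here covers only the spread among these samples, part of which may be technical.

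Halothane is a halogenated volatile anaesthetic that is broken down in the liver mainly by cytochrome P450 enzymes, of which Cyp2e1 is the best known. In the brain it enhances GABA-A and glycine receptors, the ligand-gated chloride channels of fast inhibition, and opens tandem-pore potassium channels. Conjugating enzymes such as the UDP-glucuronosyltransferases and the cytosolic sulfotransferases attach a sugar acid or a sulfate group to steroids, phenols and drugs, which makes them more water soluble.

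Each value below is the deposited intensity of a probe set on a linear scale, called its signal, and the arrays had been brought to a near-equal 2% trimmed mean. For tests, signals under 16.5, the 25th percentile of the table and called the floor here, were set to that value before log2 was taken. The fit was made with limma over all 24 arrays in 5 groups and 7389 probe sets. A change was called at a Benjamini-Hochberg adjusted p under 0.05. Standard errors (SE) and 95% intervals are those of the fit. Halothane values are given for replicates 1, 2 and 3 in that order, and 3 values for controls are the lowest, the median and the highest of the 12. No detection calls were used, and the number of arrays limits the precision. In whole brain, fewer cells of a type and less RNA per cell cannot be told apart.

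The tissue carried the defining RNAs of brain in both groups. Mbp, a myelin protein, had signals of 4206.0, 5513.0 and 6273.6 after halothane, against 3980.7 to 6223.6 in controls. Snap25, a presynaptic membrane-fusion protein, had 3384.2, 3432.5 and 2678.5 after halothane, against 1943.2 to 3692.9 in controls. Correlations of log2 signals lay between 0.9611 and 0.9744 among the halothane arrays and between 0.9517 and 0.98 for pairs of a halothane array with a control. Pairs of control arrays had 0.9504 to 0.9828, so the halothane arrays did not stand apart. No pair of arrays had identical values. The arrays were split at the largest gap, 0.574, in the mean log2 signal of the 9 bacterial spike-in probe sets. This gave a high level, 9.60 to 10.48 on 9 of the 24 arrays, and a low level, 7.78 to 9.03 on the other 15. The gap was narrower than the range within either level. Halothane replicate 3 and controls 1, 3, 10, 11 and 12 had the high spike-in level, and halothane replicates 1 and 2 and the other 7 controls the low level. Differences within each level are given beside the main results.

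Ugt2b35, a member of the UDP-glucuronosyltransferase 2B subfamily, was the 1 probe set of 7389 that passed the test, which is 0.0135% of those tested. It rose after halothane, and 0 probe sets fell past the threshold. The probe set entered the test through the group where it is high. The filter asked for 3 arrays above the floor, and it exceeded the floor on the 3 halothane arrays, on 0 of the 12 controls and on 1 of the 9 other arrays. A stricter filter left it out, and then 0 probe sets passed, with 148 at an unadjusted p under 0.05 by limma. At an unadjusted p under 0.05, 122 probe sets were higher (1.65%) and 139 lower (1.88%), 261 in all (3.53%). Over all 7389 probe sets, 3559 were higher and 3830 lower after halothane, with a median log2 difference of −0.008. The middle of that distribution was narrow, with the 5th percentile at −0.369 and the 95th at 0.328. The 95% interval lay within a log2 difference of 1 in either direction for 6595 probe sets (89.3%) and within 0.5 for 3170 (42.9%). The interval reached a median of 0.408 to either side of the estimate, so differences well under that size were not detectable for most genes with these arrays. It is not corrected for the number of probe sets, and larger differences could also miss the adjusted threshold. The first Sult1a1 probe set, for example, missed it with a log2 difference of 0.88 (adjusted p = 0.142 by limma). The 3 halothane arrays lay above all 12 controls for 9 probe sets (0.122%) and below all 12 for 17 (0.230%), 26 in all (0.352%).

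**Figure D1:**
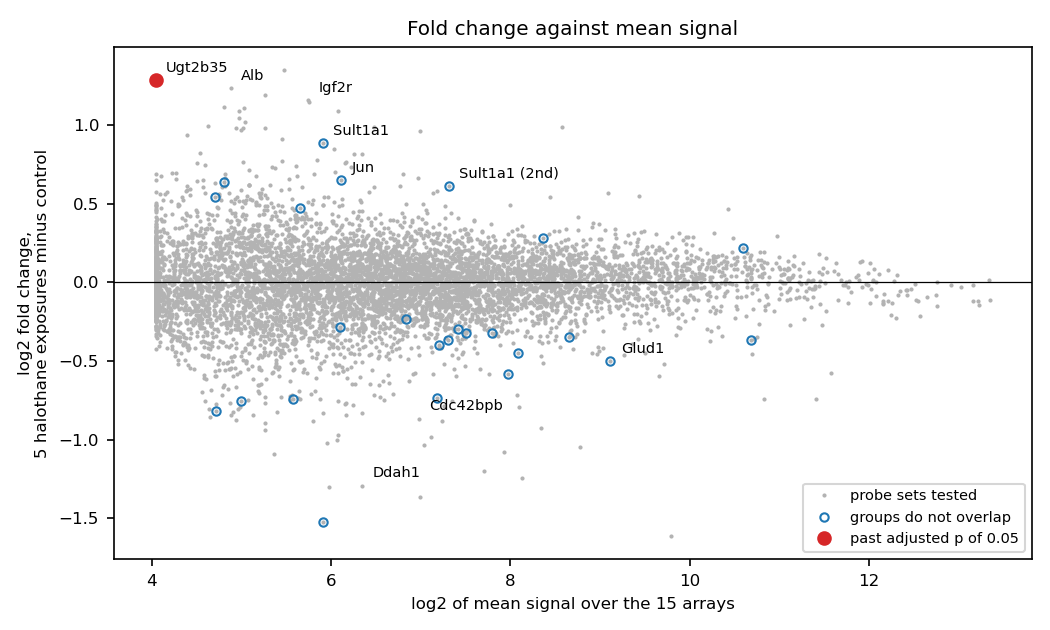
Log2 difference, 5 halothane exposures minus control, on the vertical axis against log2 mean signal over the 15 arrays on the horizontal axis, for the 7389 probe sets tested. Grey points are all probe sets, blue circles the probe sets whose groups do not overlap and the red point the 1 called probe set, Ugt2b35, which sits at 1.28 among the dim probe sets.

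The called probe set of Ugt2b35 had signals of 28.7, 74.0 and 30.6 after halothane. In the 12 controls it lay between 4.3 and 16.0, with a median of 7.05. All 3 halothane arrays were above the floor and 0 of the 12 controls were, so the groups did not overlap, and replicate 2 was the highest by far. The mean signal was 44.4 ± 25.6 after halothane (SD, n = 3) and 7.89 ± 3.55 in controls (SD, n = 12). With every control set to the floor, the log2 difference was 1.28 ± 0.17 (SE), with a 95% interval of 0.93 to 1.64 and an adjusted p of 0.00105 by limma.

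The spread of the floored control values of Ugt2b35 was 0.00 on the log2 scale, against 0.76 after halothane, and the size of the difference is set by where the floor lies. A floor at the 10th percentile gave 2.40 (adjusted p = 0.0516) and one at the 40th gave 0.32 (adjusted p = 0.968), and neither passed. Within the low spike-in level the difference was 1.48, and within the high level, with 1 halothane array, it was 0.89. The low-level arrays fitted alone gave an adjusted p of 0.328. A second probe set of the gene stayed under the floor in both groups, with 3.7, 2.0 and 4.7 after halothane and 0.2 to 10.5 in controls, and was not tested. Genes of the UGT2B subfamily are related copies and the probe sequences were not checked, so which copy these probes reported is uncertain.

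Sult1a1, the phenol sulfotransferase, came next in the order of p, and its probe sets were the brighter and steadier of the conjugation genes at the top. The first had signals of 88.1, 96.1 and 97.4 after halothane and ranged from 33.9 over a median of 52.0 to 77.6 in controls. The second had 209.2, 227.1 and 215.1 after halothane and 87.9, 146 and 184.9 in controls. In both probe sets every halothane array was above every control, and the 3 halothane values lay close together. The mean of the first was 93.9 ± 5.04 after halothane (SD, n = 3) and 51.8 ± 10.7 in controls (SD, n = 12). Its log2 difference was 0.88 ± 0.17 (interval 0.52 to 1.24), which missed the threshold with an adjusted p of 0.142 by limma. The second differed by 0.61 ± 0.17 (interval 0.27 to 0.96, adjusted p = 1). The first probe set passed the threshold in 4 of 14 other settings and also without control 8, its highest control. Its difference was 0.75 within the low spike-in level and 1.09 within the high level.

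The promoters of both conjugation genes are printed for a reader who wants the sequence behind the main results, since these were the genes with the lowest p. Each is 300 bases long, 250 before to 50 after the annotated start, from RefSeq on the rat GRCr8 assembly. Capitals mark AGAACA, an arm of the glucocorticoid response element, searched on both strands. The first lies at chr14:21208191-21208490 on the plus strand and the second at chr1:190706063-190706362 on the minus strand.
Ugt2b35: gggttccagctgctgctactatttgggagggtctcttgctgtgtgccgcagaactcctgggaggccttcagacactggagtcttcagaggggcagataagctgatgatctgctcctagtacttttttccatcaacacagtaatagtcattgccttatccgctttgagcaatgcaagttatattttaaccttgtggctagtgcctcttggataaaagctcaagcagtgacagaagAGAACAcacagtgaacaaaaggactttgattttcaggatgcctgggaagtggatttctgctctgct
Sult1a1: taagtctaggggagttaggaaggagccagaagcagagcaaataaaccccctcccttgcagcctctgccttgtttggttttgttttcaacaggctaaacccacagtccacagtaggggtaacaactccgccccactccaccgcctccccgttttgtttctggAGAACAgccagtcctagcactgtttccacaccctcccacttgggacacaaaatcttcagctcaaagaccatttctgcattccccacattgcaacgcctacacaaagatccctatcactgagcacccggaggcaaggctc
Each held 1 match, which starts 16 bases before the annotated start in Ugt2b35 and 89 bases before it in Sult1a1. The motif is common, and 6923 of 33469 promoters of the same length hold it (20.7%). The AP-1 motif TGANTCA, to which Jun binds, had 0 matches in either promoter and is held by 2453 promoters (7.33%). A match of letters says nothing about binding.

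The remaining conjugation enzymes showed no common direction. Of 37 measured phase II genes, 1 passed the test, 13 were higher and 24 lower, with a median of −0.050, against −0.004 over all 4206 named genes. Sult2a2, a hydroxysteroid sulfotransferase, had 121.3, 99.2 and 73.6 after halothane, against 101.3 to 187.1 in controls, a log2 difference of −0.46 that did not pass. A dimmer Sult2a2 probe set went the other way, with 9.1, 32.4 and 43.7 after halothane, against 6.1 to 40.8 in controls (log2 difference 0.57). Gstp1, the pi-class glutathione transferase and the brightest of the group, had 1035.3, 1047.5 and 968.0 after halothane, against 953.7 to 1213.7 in controls (log2 difference −0.04, interval −0.23 to 0.16). Over the whole array, 5 of 11 tested Ugt probe sets were higher and 6 lower, and 5 of 13 Sult probe sets were higher and 8 lower. The high values of Ugt2b35 and Sult1a1 were thus not shared by their families on this array.

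Phase I and antioxidant genes gave 0 calls. Of 38 cytochrome P450 genes, 17 were higher and 21 lower, with a median of −0.032. Cyp2e1, the main halothane-oxidising enzyme in liver, had 113.2, 116.6 and 39.6 after halothane, against 73.6, 116 and 147.2 in controls. Replicates 1 and 2 lay at the control median and replicate 3 below all controls, and the log2 difference was −0.47 ± 0.25. Cyp2d4, the brightest P450 probe set, differed by 0.08 (interval −0.16 to 0.33). Of 24 antioxidant genes, 13 were higher and 11 lower (median 0.022). Nqo1, a quinone reductase of the oxidative stress response, had 143.1, 178.4 and 156.0 after halothane, against 104.4 to 164.3 in controls, with 1 of 3 halothane arrays above all controls (log2 difference 0.32 ± 0.15, adjusted p = 1).

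Beside the conjugation genes, 4 named genes that were above the floor on all 15 arrays had every halothane array above every control, and none passed the test. Over all probe sets 0.122% lay wholly above the controls, and these values are given as a description. Jun, a subunit of the AP-1 transcription factor, had 87.7, 93.6 and 108.9 in 1 probe set after halothane, against 43.9, 60.5 and 77.4 in controls. Its log2 difference was 0.65 ± 0.20. The other 3 probe sets of Jun overlapped with controls and differed by 0.35, 0.33 and −0.03, so they did not share a direction. Phax, an adaptor for the nuclear export of small nuclear RNA, had 39.7, 32.7 and 31.5 after halothane, against 17.5 to 30.7 in controls. Its second probe set overlapped, with a log2 difference of 0.39 beside 0.54 in the first. Eif2b3, the gamma subunit of the exchange factor that recharges eIF2 for translation, had 63.8, 59.6 and 65.1 after halothane, against 17.0 to 59.3 in controls. Its other probe sets overlapped with controls and differed by 0.11 and 0.18. Ubald1, a gene of little known function, had 401.6, 374.2 and 376.0 after halothane, against 261.9 to 370.7 in controls, and the gap between the groups was small.

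**Figure D2:**
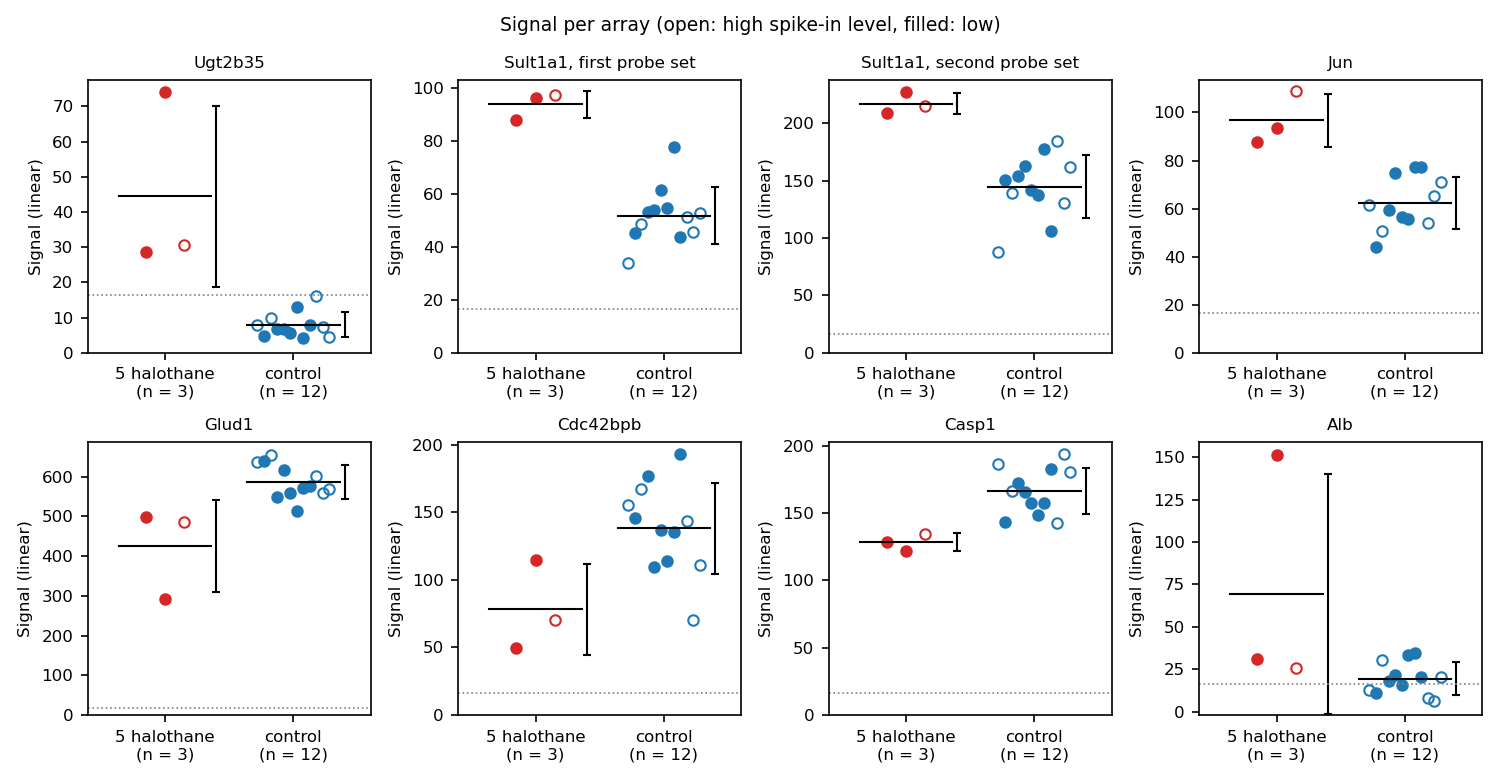
Signal on a linear scale by array for Ugt2b35, both probe sets of Sult1a1, Jun, Glud1, Cdc42bpb, Casp1 and Alb, with the 3 halothane arrays left of the 12 controls in each panel. Lines are means, bars are SD, open points mark arrays with the high spike-in level and the dotted line is the floor of 16.5, under which all 12 controls of Ugt2b35 lie.

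On the lower side, 12 named genes above the floor on all 15 arrays had every halothane array below every control, where 0.230% of all probe sets did, and 0 of them passed the test. Glud1, the mitochondrial glutamate dehydrogenase that links glutamate to the citric acid cycle, had the lowest p of them. Its signals were 497.2, 292.2 and 485.2 after halothane, against 512.0, 574 and 654.3 in controls. Replicate 2 was well under the other two halothane arrays, and replicates 1 and 3 lay just under the lowest control. The log2 difference was −0.50 ± 0.12 (interval −0.75 to −0.25, adjusted p = 0.661 by limma). A second, brighter probe set had 565.6, 668.4 and 562.6 after halothane, against 610.5 to 858.8 in controls, and in it replicate 2 was the highest of the 3. That probe set differed by −0.25 (interval −0.48 to −0.02), with replicates 1 and 3 below all controls. The third, dim probe set differed by −0.27.

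Casp1, the protease that activates interleukin-1 beta, had 128.4, 121.7 and 134.7 after halothane, against 142.6, 166 and 193.6 in controls, with a log2 difference of −0.37 ± 0.12. That difference was −0.36 within both spike-in levels, and its other probe sets, which were dim, differed by −0.46 and −0.05. Eif2b2, the beta subunit of the same eIF2 exchange factor as Eif2b3, had 345.3, 306.0 and 335.8 after halothane, against 360.8 to 529.0 in controls. The probe sets of these subunits with no overlap thus lay on opposite sides of the controls, while the other Eif2b3 probe sets overlapped with them. Fut1, a fucosyltransferase, had 197.6, 175.0 and 182.4 after halothane, against 201.8 to 280.4 in controls (log2 difference −0.32 ± 0.10). Lgals3bp, a secreted galectin-binding protein, had 119.9, 108.7 and 120.5 after halothane, against 122.4 to 184.7 in controls (−0.40 ± 0.13).

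Dlk1, a Notch-like membrane protein, had 123.6, 112.5 and 59.5 after halothane, against 131.1 to 196.7 in controls, and replicate 3 gave most of its log2 difference of −0.73. The probe set named Ins1, for an insulin gene, had 217.3, 204.3 and 206.9 after halothane, against 247.7 to 386.7 in controls, while another Ins1 probe set differed by 0.02. Tns2, a focal adhesion protein, had 20.3, 18.2 and 21.0 after halothane, against 22.8 to 57.0 in controls, close to the floor. Hoga1, a mitochondrial aldolase of hydroxyproline breakdown, had 25.8, 31.4 and 31.1 after halothane, against 32.4 to 90.5 in controls. Galm, which interconverts the anomers of galactose, had 143.1, 143.9 and 143.7 after halothane, against 155.6 to 212.1 in controls. P2rx6, a subunit of ATP-gated channels, had 63.3, 54.2 and 58.1 after halothane, against 64.0 to 83.3 in controls. Stk10, a serine/threonine kinase, had 142.4, 152.7 and 155.3 after halothane, against 162.9 to 253.9 in controls. The last 3 were named after their values were seen, and their differences were the smallest of the 12 beside that of Fut1. Dlk1, Ins1, Tns2 and Hoga1 had adjusted p = 1 by limma, as did the other named genes with no overlap except Ugt2b35, the first Sult1a1 probe set and the Glud1 probe set. The unnamed probe set of an expressed sequence tag had 25.6, 13.1 and 26.2 after halothane, against 34.1, 69.1 and 121.8 in controls, a log2 difference of −1.53 (adjusted p = 0.496 by limma).

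Among the 15 named genes with the lowest p, several overlapped with controls and turned on 1 or 2 arrays. Cdc42bpb, a kinase downstream of the small GTPase Cdc42, had 49.4, 114.9 and 70.0 after halothane, against 70.0, 140 and 193.0 in controls (log2 difference −0.87 ± 0.23). Ddah1, which breaks down the nitric oxide synthase inhibitor dimethylarginine, had 15.7, 72.3 and 37.1 after halothane, against 40.3 to 136.5 in controls (−1.29 ± 0.36). The brighter Ddah1 probe set showed little of this, with 346.1, 336.4 and 235.7 after halothane, against 221.2 to 375.5 in controls (−0.09). Igf2r, the receptor that carries IGF2 and mannose 6-phosphate proteins to lysosomes, had 128.1, 77.9 and 74.1 after halothane, against 18.4, 45.4 and 79.2 in controls (1.16 ± 0.34). Rbpms, an RNA-binding protein, had 50.3, 43.7 and 58.9 after halothane, against 58.6 to 91.6 in controls, so 2 of 3 halothane arrays were below all controls (−0.56 ± 0.16). Nubpl, an assembly factor of respiratory complex I, had 38.2, 71.2 and 46.3 after halothane, against 4.7 to 43.8 in controls, with 2 of 3 halothane arrays above all controls (1.11 ± 0.33).

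The last genes of that rank were dim or rested on 1 array. Mx1, an interferon-induced GTPase, lay under the floor on all 3 halothane arrays, with 11.2, 8.9 and 8.4, against 6.6, 30.2 and 40.9 in controls, of which 11 of 12 were above the floor. Nkx2-5, a homeodomain factor known from heart, had 59.5, 50.9 and 14.3 after halothane, against 49.8 to 115.2 in controls. Sert1 had 6.3, 23.3 and 27.0 after halothane, against 4.2 to 21.0 in controls, and Bpifa2f, known in rat from the parotid gland, had 9.1, 22.2 and 23.1 after halothane, against 4.0 to 17.5 in controls. Their log2 differences were 0.36 and 0.30, made almost wholly of values near the floor. Probe sets of a gene did not always share a direction on this array. Of 754 genes with at least 2 bright probe sets, 451 had the same sign in both (59.8%). Among the 55 of these whose best probe set had an unadjusted p under 0.05, the second had the same sign in 42 (76.4%).

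The receptors and channels on which volatile anaesthetics act gave 0 calls. Of 13 GABA-A receptor subunits, 10 were higher and 3 lower, with a median of 0.098. Gabrb2, the brightest, had 899.8, 699.2 and 915.3 after halothane, against 567.9 to 904.9 in controls (log2 difference 0.10, interval −0.24 to 0.44). Gabra3 had 59.5, 76.1 and 61.8 after halothane, against 67.7, 79.9 and 110.2 in controls, with 2 of 3 halothane arrays below all controls (−0.33 ± 0.18). Gabrb1 had 153.2, 124.0 and 145.9 after halothane, within the control range of 28.4 to 158.0 (0.62 ± 0.45). All 4 genes of the glycine receptor list were lower, by a median of −0.380. In that list Glra2 had 51.7, 15.1 and 29.9 after halothane, against 29.7 to 57.4 in controls, and gephyrin, Gphn, which anchors inhibitory receptors, had 171.1, 98.5 and 156.3 after halothane, against 137.6 to 234.7 in controls. For both it was replicate 2 that lay below all controls, and the other halothane arrays lay in the control range.

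Of 23 glutamate receptor genes, 9 were higher and 14 lower (median −0.029). Grin2a, an NMDA receptor subunit, had 152.0, 122.2 and 80.9 after halothane, against 105.0 to 298.4 in controls (−0.60 ± 0.29). Of 47 potassium channel genes, 22 were higher and 25 lower (median −0.032). Kcnk3, a tandem-pore channel that halothane opens, was the member with the lowest p, with 36.9, 27.0 and 23.6 after halothane, against 12.5, 14.6 and 31.4 in controls. All 3 halothane arrays were above the floor and 3 of 12 controls were, but 1 halothane array alone exceeded every control (0.66 ± 0.32, adjusted p = 1). Of 33 sodium, calcium and pacemaker channel genes, 21 were higher and 12 lower (median 0.109). Cacna1a, the pore of P/Q-type calcium channels, had 263.3, 338.5 and 272.4 after halothane, against 304.9 to 396.9 in controls, with replicates 1 and 3 below all controls (−0.25 ± 0.10).

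**Figure D3:**
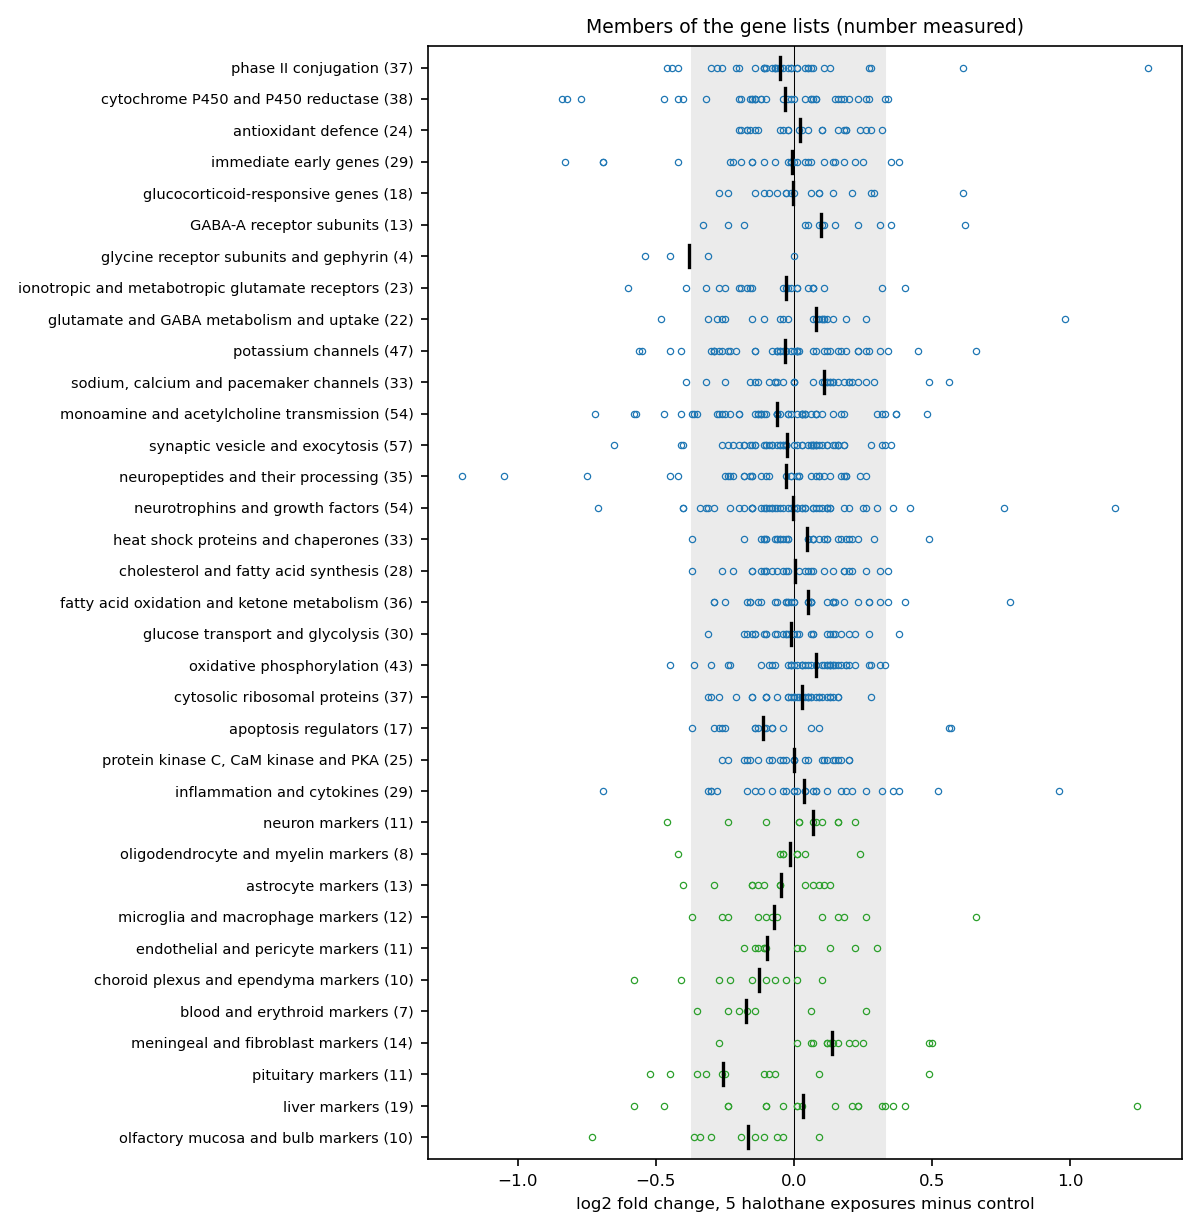
Log2 difference, 5 halothane exposures minus control, of each measured gene of the lists described, with a black tick at each list's median. Blue lists are by role and green lists by cell type, and the grey band runs from the 5th to the 95th percentile of all probe sets (−0.369 to 0.328). Most lists have members on both sides of 0, and the band describes single probe sets, not medians.

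Transmitter uptake and release genes were likewise spread on both sides. Of 22 genes of glutamate and GABA metabolism and uptake, 12 were higher and 10 lower (median 0.078). Slc6a11, the GABA transporter GAT-3, had 123.3, 144.0 and 116.3 after halothane, against 117.1, 181 and 254.1 in controls (−0.48 ± 0.19). Slc6a4, the serotonin transporter, had 154.1, 75.0 and 82.9 after halothane, against 113.9 to 193.9 in controls, with replicates 2 and 3 below all controls (−0.58 ± 0.20). It stood in a list of 54 monoamine and acetylcholine genes, of which 22 were higher and 32 lower (median −0.060). Of 57 synaptic vesicle genes, 27 were higher and 30 lower (median −0.025). Cadps, which primes dense-core vesicles, had 647.6, 580.3 and 515.8 after halothane, against 396.0, 461 and 545.4 in controls (0.35 ± 0.13), with replicates 1 and 2 above all controls.

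Of 35 neuropeptide genes, 15 were higher and 20 lower (median −0.027), and the largest differences rested on replicate 3. Oxt, the oxytocin precursor, had 208.1, 212.4 and 14.8 after halothane, against 86.0, 190 and 408.2 in controls. Avp, the vasopressin precursor, had 299.4, 435.3 and 81.3 after halothane, against 253.1 to 815.5 in controls. Replicates 1 and 2 lay inside the control range for both hormones of the magnocellular hypothalamus, and replicate 3 lay far below it. The log2 difference of Oxt was 0.48 within the low spike-in level and −4.28 within the high level, where replicate 3 is the lone halothane array. For Avp these were −0.08 and −2.83. Over all arrays the differences were −1.20 ± 0.67 for Oxt and −1.05 ± 0.46 for Avp (adjusted p = 1 for each by limma).

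Stress-response and immediate early genes showed no shared direction. Of 29 immediate early genes, 12 were higher and 17 lower (median −0.007). Their mean floored log2 signal was 6.97, 6.90 and 6.62 after halothane, against 6.80 to 7.01 in controls, so replicate 3 lay below all controls. Egr1, an activity-dependent zinc finger factor and the brightest of them, had 1363.7, 973.9 and 779.5 after halothane, against 830.6 to 1370.8 in controls. Fosl2, a partner of Jun in AP-1, had 65.9, 37.4 and 18.8 after halothane, against 50.5, 59.0 and 97.0 in controls, with replicates 2 and 3 below all controls (−0.83 ± 0.26). Of 18 glucocorticoid-responsive genes, which include Sult1a1, 9 were higher and 9 lower (median −0.002). Klf9, a glucocorticoid-induced factor in brain, had 1210.4, 952.0 and 959.9 after halothane, against 572.7 to 1179.7 in controls (0.29 ± 0.14). Of 33 heat shock and chaperone genes, 17 were higher and 16 lower (median 0.049). Cryab, a small heat shock protein, had 355.5, 342.4 and 289.7 after halothane, against 182.6, 235 and 344.2 in controls (0.49 ± 0.18).

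Energy metabolism gave 0 calls. Of 43 oxidative phosphorylation genes, 29 were higher and 14 lower (median 0.078), and 42 had a 95% interval within a log2 difference of 1. Of 36 genes of fatty acid oxidation, 20 were higher and 16 lower (median 0.052). Ech1, an auxiliary enzyme of that pathway, had 214.4, 221.7 and 216.3 after halothane, against 138.9, 182 and 220.8 in controls, so all 3 halothane arrays sat near the top of the control range (0.27 ± 0.11). Acadl, the long-chain acyl-CoA dehydrogenase, had 115.9, 117.5 and 112.7 after halothane, against 66.5 to 114.3 in controls (0.34 ± 0.17). Of 30 glycolysis genes, 15 were higher and 15 lower (median −0.012), and of 37 ribosomal protein genes, 21 were higher and 16 lower (median 0.030). The mean floored log2 signal of the ribosomal list was 9.52, 9.34 and 9.82 after halothane, against 9.37 to 9.78 in controls. Replicate 2 thus lay below all controls and replicate 3 above them.

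These other role lists also held 0 calls. Of 17 apoptosis regulators, 4 were higher and 13 lower (median −0.111), Casp1 among the lower. Of 29 inflammation genes, 17 were higher and 12 lower (median 0.035). The 54 growth factor genes split into 27 higher and 27 lower (median −0.005), the 28 genes of cholesterol and fatty acid synthesis into 14 higher and 14 lower (0.002), and the 25 kinase genes of the protein kinase C, CaM kinase and PKA list into 12 higher and 13 lower (−0.001).

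Markers of the brain's own cell types gave 0 calls. The medians were 0.070 for 11 neuron markers, −0.014 for 8 oligodendrocyte, −0.047 for 13 astrocyte, −0.073 for 12 microglia and −0.097 for 11 endothelial markers. Markers of adjoining tissue moved by array. The summed signal of 10 choroid plexus markers was 5135, 3904 and 2844 after halothane, against 4045 to 6030 in controls. Its brightest member Ttr, the transthyretin that choroid plexus secretes, had 3380.5, 2203.8 and 1349.6 after halothane, against 2268.6, 3309 and 3951.8 in controls (−0.58 ± 0.20). Replicates 2 and 3 were below all controls and replicate 1 was near the control median. The summed signal of 14 meningeal markers was 5172, 5426 and 3752 after halothane, against 3360 to 5248 in controls, with 13 members higher and 1 lower (median 0.136). The pituitary list, with 2 of 11 members higher and 9 lower (median −0.255), summed to 718.4, 666.5 and 611.1 after halothane, against 626.8 to 1068 in controls. The olfactory list had 1 of 10 members higher and 9 lower (median −0.166), and its sums of 961.1, 1067 and 995.5 after halothane lay within the 875.8 to 1317 of controls. Its mean floored log2 signal, in which each member counts equally, was 5.49, 5.75 and 5.41 after halothane, against 5.53 to 6.02 in controls. On that measure replicates 1 and 3 lay below all controls.

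Among the halothane arrays, globin and albumin signals were highest in replicate 2. The 7 blood and erythroid markers summed to 529.6, 1102 and 619.0 after halothane, against 630.0 to 1096 in controls, and 2 were higher and 5 lower (median −0.174). Hbb, a beta-globin, had 85.5, 357.4 and 81.3 after halothane, against 120.4 to 304.2 in controls, so the halothane arrays lay on both sides of the control range after perfusion. For Hbb-b1, another beta-globin, the signals were 94.3, 343.2 and 114.6 after halothane, against 119.2 to 373.9 in controls. There replicate 2 lay inside the control range. Of 19 liver markers, 12 were higher and 7 lower (median 0.032). Their summed signal was 4559, 3650 and 2291 after halothane, against 3610 to 5367 in controls, and Ttr alone gave 3380.5, 2203.8 and 1349.6 of it. Their mean floored log2 signal, in which each member counts equally, was 6.00, 6.22 and 5.75 after halothane, against 5.62 to 6.27 in controls. On that measure replicate 2 was the highest of the halothane arrays and lay inside the control range. Alb, serum albumin, had 31.1, 151.1 and 26.0 after halothane, against 6.6, 19.5 and 34.8 in controls (1.24 ± 0.37, adjusted p = 1), and a second probe set had 10.5, 67.4 and 17.7 after halothane, against 8.3 to 20.6 in controls. The remaining probe set of Alb differed by −0.05. Replicate 2, which was also highest for Ugt2b35, was the lone halothane array above all controls in each of them. Without replicate 2 the Ugt2b35 difference was 0.84, with all controls set to the floor as before. Ugt2b genes are known mainly from liver, and the part of other tissue in these values was not tested.

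The remaining exposed groups share these controls, so their values are given side by side. Ugt2b35 had 4.7, 10.2 and 3.9 after 10 halothane exposures, 4.8, 4.3 and 6.0 after 5 isoflurane exposures and 25, 5.7 and 4.6 after 10 isoflurane exposures. Of those 9 arrays, 1 was above the floor. The 10-exposure halothane group was lower than the 5-exposure group by a log2 difference of −1.28 ± 0.22, and the 5-exposure halothane group was higher than the 5-exposure isoflurane group by 1.28 ± 0.22, each with an adjusted p of 0.0401 by limma. Ugt2b35 was the 1 call in each of these comparisons (0.0135% of 7389), and all 6 arrays it was set against lay under the floor, so both differences are the same distance from a constant. Both calls were lost with no filter (adjusted p = 0.0809 for each) and without any 1 of the 12 controls (adjusted p up to 0.0665). They were made in 4 and 5 of 12 other settings. The first probe set of Sult1a1 behaved differently, with 98.2, 106.9 and 95.6 after 10 halothane exposures, 68.6, 56.8 and 70.8 after 5 isoflurane exposures and 54.0, 66.4 and 65.4 after 10 isoflurane exposures. Its log2 difference from control was 0.88 after 5 and 0.98 after 10 halothane exposures, and 0.36 after 5 and 0.28 after 10 isoflurane exposures. Between 5 halothane and 5 isoflurane exposures it differed by 0.53, which did not pass (adjusted p = 1), and halothane and isoflurane were given at different concentrations.

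Igf2r, Fut1 and Cdc42bpb were measured in the same groups. Igf2r had 102.7, 103.6 and 83.3 after 10 halothane exposures, 58.2, 49.9 and 30.6 after 5 isoflurane exposures and 108.8, 140.0 and 69.7 after 10 isoflurane exposures, beside 128.1, 77.9 and 74.1 after 5 halothane exposures. Its log2 differences from control in the same order were 1.24, 0.14 and 1.33, beside 1.16 after 5 halothane exposures. For Fut1 they were −0.38, 0.12 and −0.41, beside −0.32, and for Cdc42bpb −0.45, 0.09 and −0.07, beside −0.87. None of these genes differed past the threshold between the 5-exposure halothane group and either of the groups it was tested against.

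**Figure D4:**
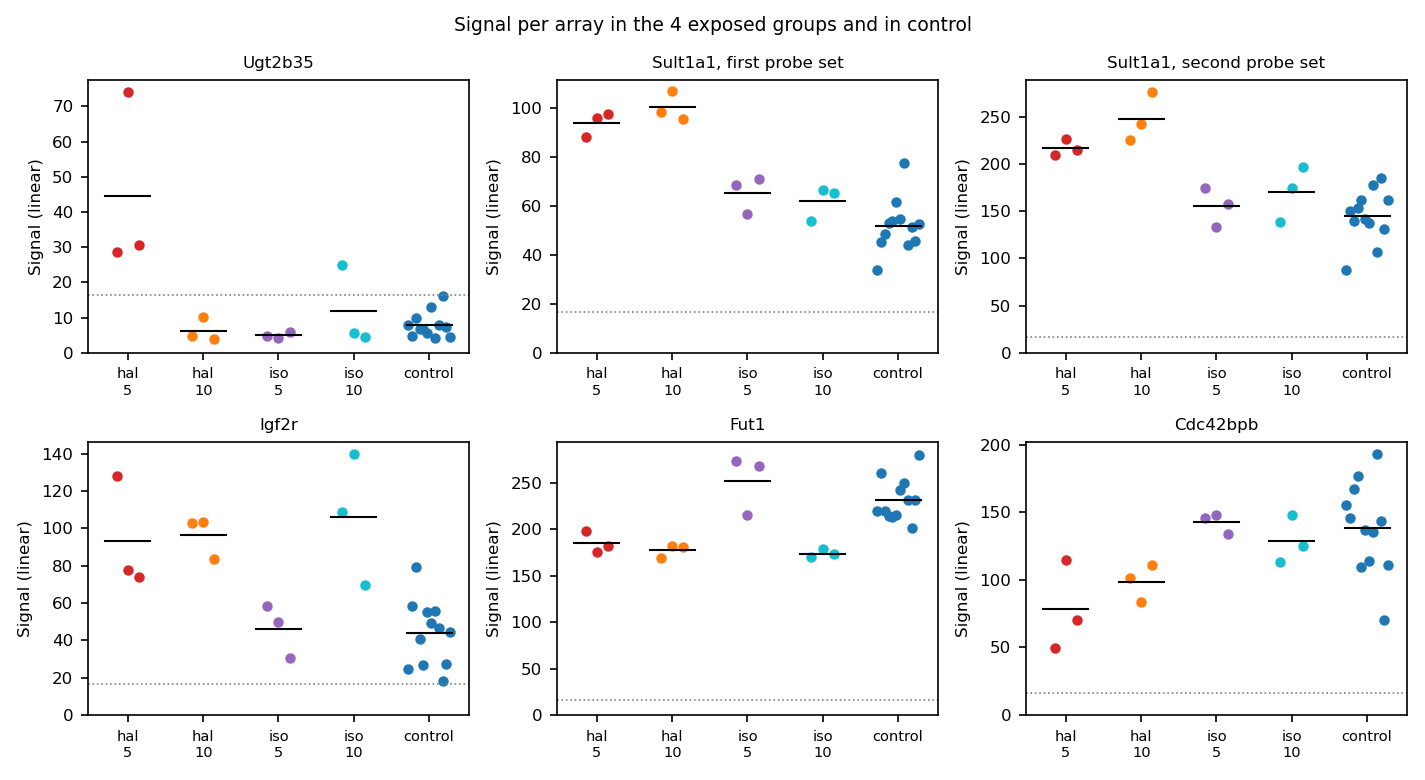
Signal on a linear scale by array in the 4 exposed groups and, on the right, in the controls for Ugt2b35, both probe sets of Sult1a1, Igf2r, Fut1 and Cdc42bpb. Points are arrays, lines are means and the dotted line is the floor of 16.5. Ugt2b35 is above it on all 3 arrays after 5 halothane exposures and on 1 of the 9 arrays of the other exposed groups.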

How the data were processed

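Whole rat brain RNA had been hybridised to 24 single-colour oligonucleotide arrays, and the deposited table holds their intensities on a linear scale, 1 for every probe set. The sources used here do not give the software behind it. Groups and replicate numbers came from the titles. Members and gene lists were chosen with earlier results of these data known.

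The deposited scaling was kept. Signals under 16.5 were set to that value, and 59 control probe sets of 8799 were dropped. Tested were the 7389 probe sets that exceeded the floor on 3 or more arrays. The platform annotation gave 1 symbol for 6018 of them (4206 genes), several for 267, which stayed unnamed, and none for 1104. A current RefSeq gene table held 5998 of the single-symbol probe sets. The model was limma's (3.58.1, under R 4.3.3; lmFit and eBayes with an intensity trend, two-sided), with Benjamini-Hochberg correction over 7389 probe sets. The fit was tested on simulated data.

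Named genes were the called probe set, the 15 genes with the lowest p, the largest rises and falls with no overlap among probe sets above the floor on all 15 arrays, and up to 3 members of the lowest p plus the brightest of each list. A list used 1 probe set per gene, the brightest, and 1 of the 36 lists is not reported here. Alternatives were other normalizations, floors, filters and variance models, blocks, fewer arrays and each array left out.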

Additional observations from a re-analysis of the deposited data

Results flagged for a closer look

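Ugt2b35 stood out because its level after 5 halothane exposures differed from 2 other exposed groups by a test of the difference itself. The 10-exposure halothane group was lower than the 5-exposure group by a log2 difference of −1.28 ± 0.22 (adjusted p = 0.0401 by limma). The 5-exposure halothane group was higher than the 5-exposure isoflurane group by 1.28 ± 0.22 (adjusted p = 0.0401). Signals were 28.7, 74.0 and 30.6 after 5 halothane exposures, beside 4.7, 10.2 and 3.9 after 10 halothane exposures and 4.8, 4.3 and 6.0 after 5 isoflurane exposures. All arrays of the last 2 groups lay under the floor of 16.5, so both differences are the same distance from that floor and their size depends on it. They are thus not 2 separate measures. The probe set had also entered the test through the group where it is high, the 5-exposure halothane group. The other Ugt2b35 probe set was under the floor and gave no second measure of either difference. Neither call was steady: they were made in 4 and 5 of 12 other settings, were lost with no filter (adjusted p = 0.0809 for each) and were lost without any 1 of the 12 controls (adjusted p up to 0.0665).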

How the results depend on the processing

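The count of 1 called probe set, Ugt2b35, became 2 with quantile normalization, median centring or no intensity trend, where Sult1a1 joined it. It became 0 in limma with the floor at the 10th percentile, with the strict filter, with the replicate block and with the low spike-in arrays alone, with 267, 148, 840 and 381 probe sets at an unadjusted p under 0.05. With each of the 15 arrays left out it was 1 to 2, and 2 without control 8, where Sult1a1 differed by 0.94 (adjusted p = 0.0201). The Ugt2b35 difference of 1.28 was called in 9 of 13 other settings. It was lost with floors at the 10th (2.40, adjusted p = 0.0516) and 40th percentiles (0.32, adjusted p = 0.968), with the replicate block (1.28, adjusted p = 0.237) and with low spike-in arrays alone (1.48, adjusted p = 0.328). The strict filter dropped the probe set. It was 0.84 to 1.53 with each array left out, called every time. Sult1a1 was called with quantile normalization (0.90, adjusted p = 0.0343), median centring (0.90, adjusted p = 0.0438), a higher floor at the 40th percentile (0.87, adjusted p = 0.0332) and no trend (0.88, adjusted p = 0.0365), and its range over 14 settings was 0.71 to 1.16. The count of 26 probe sets with no overlap was 19 to 29 under other normalizations and floors, and 28 to 163 with each array left out, with 108, 99 and 163 without halothane replicate 1, 2 or 3, since fewer arrays overlap less often.

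Replicate numbers were not taken to pair the samples. In the fit with the replicate block, a control whose number no exposed array shares fills a block alone. Its differences therefore rest on the remaining controls. Deviations of the halothane arrays from their group mean correlated with those of same-numbered controls at −0.184, 0.023 and 0.244. For the arrays after 10 halothane exposures the correlations were 0.096, 0.156 and 0.378, and for those after 5 isoflurane exposures 0.087, 0.162 and 0.356, where replicate 3 alone correlated best with its own number.

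The alternatives for the comparisons with other exposed groups were chosen after seeing the data. The difference of 10 minus 5 halothane exposures was called in 4 of 12 other settings. It was lost with the floor set to the 10th (−2.57, adjusted p = 0.231) or 40th percentile (−0.32, adjusted p = 1) or replaced by an offset (−1.35, adjusted p = 0.0874), and with no filter (−1.28, adjusted p = 0.0809), controls 10 to 12 left out (−1.28, adjusted p = 0.158), no trend (−1.28, adjusted p = 0.0547), the replicate block (−1.28, adjusted p = 0.697) and low spike-in arrays alone (−1.48, adjusted p = 0.627). The count was 0 in those and with the strict filter (168 to 436 at an unadjusted p under 0.05, limma), and 2 with array weights. With each array left out the difference was −1.53 to −0.84 and the count 0 to 2, and it was lost without any 1 of the 12 controls (adjusted p up to 0.0665). The difference of halothane minus isoflurane at 5 exposures was called in 5 of 12. It was lost with the floor at the 10th (2.83, adjusted p = 0.136) or 40th percentile (0.32, adjusted p = 1), no filter (1.28, adjusted p = 0.0809), controls 10 to 12 left out (1.28, adjusted p = 0.158), no trend (1.28, adjusted p = 0.0547), the replicate block (1.28, adjusted p = 0.969) and low spike-in arrays alone (1.48, adjusted p = 0.947). The count was 0 in the first 6 of these and the strict filter (120 to 348 at an unadjusted p under 0.05, limma). With each array left out the difference was 0.84 to 1.53 and the count 0 to 2, again lost without any 1 control. Of 1080 list medians in other settings, 25 moved, in 16 of 36 lists. Among the genes named by rule for the lowest p or for the largest differences with no overlap, 0 differences changed sign. Changes of sign were not counted for list medians or for list members without a call. The cause of these losses was not tested.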

Other observations

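Replicate 3 after 5 halothane exposures had low signals for several RNAs of the striatum as well as of the hypothalamus, a pattern chosen after its values were seen. Drd1, the dopamine D1 receptor of striatal projection neurons, had 112.1, 145.4 and 39.4 after 5 halothane exposures, against 109.3 to 151.2 in the 12 controls. Penk, the enkephalin precursor, had 440.9, 502.2 and 138.5 after 5 halothane exposures, against 311.3 to 603.7 in controls, and Tac1, the substance P precursor, had 465.2, 487.0 and 143.0 after halothane, against 253.7 to 539.3 in controls. In all 3 genes replicates 1 and 2 lay inside the control range and replicate 3 below it. Drd2, the dopamine D2 receptor, had 35.9, 81.8 and 10.5 after 5 halothane exposures, against 10.4 to 72.7 in controls. Its replicate 3 was thus inside the control range and its replicate 2 above it. Pmch, a peptide precursor of the lateral hypothalamus, had 186.3, 175.8 and 22.5 after halothane, against 30.1 to 279.3 in controls.

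Drd1, and in part Penk and Tac1, were low in replicate 3 of other exposed groups too, and all these arrays had the high spike-in level. Drd1 had 57.4 in replicate 3 after 10 halothane exposures, 44.2 after 5 isoflurane exposures and 71.8 after 10 isoflurane exposures, each under the lowest control value of 109.3. Of the 12 controls, 5 had the same high spike-in level. Penk had 221.9, 215.7 and 357.7 and Tac1 had 210.9, 176.5 and 320.8 in those arrays, so after 10 isoflurane exposures both lay inside the control range. Drd2 had 12, 14.1 and 15 in the same arrays, inside its control range of 10.4 to 72.7. Oxt and Avp did not follow, with 327.3 and 458.5 in replicate 3 after 10 halothane exposures. These hormones were low in replicate 1 of other groups instead. Avp had 178.2 in replicate 1 after 10 halothane exposures, 133.4 after 5 isoflurane exposures and 102.0 after 10 isoflurane exposures, each under the lowest control value of 253.1. Oxt had 95.5, 59.9 and 26.1 in those arrays, the last pair under its lowest control value of 86.0. A single array low for these hormones was thus found in each exposed group for Avp and in 3 of the 4 for Oxt. Values of Drd1, Penk and Tac1 in the 5-exposure halothane group therefore rest on replicate 3.

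Replicate 2 after 5 halothane exposures was low for several bright RNAs of energy metabolism, translation and secretion, picked after their values were seen. Cox6b1, a cytochrome oxidase subunit, had 1848.1, 738.2 and 1784.2 after halothane, against 1408.8 to 2174.5 in controls. Rps29, a ribosomal protein, had 4585.4, 2621.7 and 6427.9 after halothane, against 4438.1 to 5524.5 in controls. Gad1, a GABA-synthesising enzyme, had 932.8, 403.3 and 801.8 after halothane, against 657.3 to 986.1 in controls, and Nefm, a neurofilament, had 677.2, 258.2 and 558.7 after halothane, against 471.7 to 1021.4 in controls. It was the lowest of the 15 arrays for 5 of 43 oxidative phosphorylation genes and 7 of 37 ribosomal protein genes, and single controls reached 13 and 8. The halothane arrays held the highest or lowest of the 15 values in 14.8%, 10.4% and 13.6% of the 5293 probe sets above the floor throughout, within the 5.44% to 20.9% of single controls.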
